A study of Bos taurus with 12 samples.

Results

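The subject is a difference of differences in bovine endometrium, the inner lining of the uterus: the summer minus autumn change in the uterine horn next to the corpus luteum, labelled CL-side, minus the summer minus autumn change in the opposite horn (the non-CL side). It was taken across all genes on 12 of the 12 arrays of the study, which compared gene expression between summer and autumn. Biopsies came from Japanese-Black cows at day 15 of the cycle, in early September and in mid-November over consecutive years. The 4 groups were CL side in summer, CL side in autumn, non-CL side in summer and non-CL side in autumn, with 3 arrays each, numbered 1 to 3 in the titles. All groups share breed, tissue and cycle day, and no treatment, age or parity is given in the labels. Nothing in the labels says that the numbers are separate cows or which year an array belongs to, so p-values measure the spread between these samples. A biopsy holds a mixture of cells, so that fewer cells of a type and less RNA per cell cannot be told apart here.

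The corpus luteum is the ovarian body that forms after ovulation and secretes progesterone, the hormone that prepares the uterus for pregnancy. Blood and lymph vessels join each ovary to the horn on its own side, so the horn next to the corpus luteum can be exposed to more progesterone than the other. The endometrium itself is built of luminal and glandular epithelium, a fibroblast stroma, vessels and resident immune cells, and in the later luteal phase it secretes proteins into the lumen and makes prostaglandins.

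Each array held 15208 non-control probes, and 79.2% to 84.1% of them were well above background on an array. CL-side summer number 2, here the dim array, had a 75th percentile of the signal of 2007, against 3516 to 4418 for the remaining 11. It stood apart in its values too: its correlations with the others had a median of 0.928, whereas those others correlated with each other at 0.972 or higher. Endometrial markers chosen for a check of the label were well above background on all 12 arrays, including EPCAM and KRT8 of epithelium, VIM and COL3A1 of stroma, and PGR, FOXA2 and SERPINA14. ESR1, the estrogen receptor, was above background on 11 arrays but lay near the floor of the scale. DES, a muscle gene in the same check, was above background on all 12 arrays. Its log2 signals relative to the array's 75th percentile ran from −1.57 to 2.59. All 6 summer arrays and the autumn arrays numbered 1 were on 1 slide of 8 arrays, and the 4 other autumn arrays were on another.

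In all that follows, a contrast above 0 means that the summer minus autumn change was higher on the CL side than on the non-CL side, in log2 units. Levels are log2 signals relative to the 75th percentile of the array, errors of contrasts are standard errors (SE) and all tests were two-sided. No probe of 12375 tested passed an adjusted p of 0.05 (limma with Benjamini-Hochberg adjustment), a share called of 0%, and the smallest adjusted p was 0.999. The same 0.999 therefore belongs to each gene named here, and a missed threshold does not show that the horns responded alike. At an unadjusted p under 0.05 there were 233 probes (1.88%), where evenly spread p-values would have given 619. Of these, 156 lay above 0 (1.26%) and 77 below (0.622%).

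Same-numbered arrays of the 2 horns deviated together in all 6 pairs, so each number gave a CL minus non-CL difference, called the horn difference. With the numbers as a block within each season, 548 probes had an unadjusted p under 0.05 (395 above 0 and 153 below) and 0 passed the adjusted threshold. With the numbers as blocks across seasons these counts were 366 and 0. Leaving out CL-side summer number 3 gave 740 and 1, the only setting of 34 with a probe past the adjusted threshold. That probe has no gene name and was well above background on 4 arrays. It was at the floor on every non-CL summer array, so its contrast of 1.97 ± 0.80 on all arrays is a fitted value and no measured fold. The array left out had a signal of −7.01, near the floor, against −4.04 and −4.82 on the other CL-side summer arrays.

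The contrast had a median of 0.03 over all probes, a 5th percentile of −0.72 and a 95th of 0.83. Its median standard error was 0.35. Values above 0 were found for 53.9% of probes and below 0 for 46.1%, and 5.29% differed from 0 by more than 1. The SD within a group, taken as the median over probes, was 0.36 in CL-side summer, which holds the dim array, and 0.20 to 0.23 in the other groups. Season changes were larger in size on the CL side for 69.4% of all probes and for 205 of the 233 with an unadjusted p under 0.05 (88.0%). They ran in opposite directions in the horns for 172 of the 233, against 38.4% of all probes. As the 233 were picked by that contrast, these shares describe them and test nothing.

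**Figure D1:**
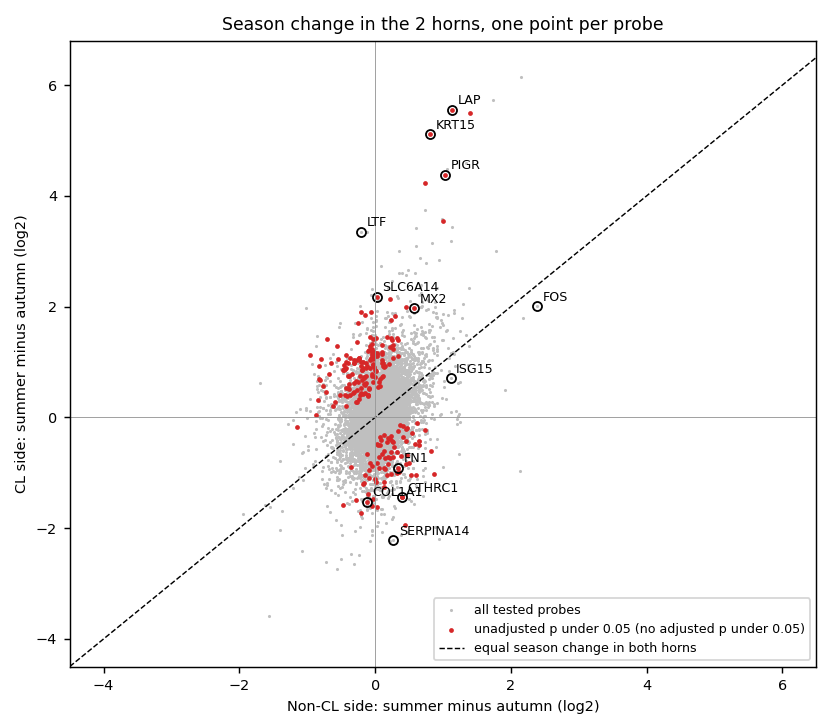
Season change (summer minus autumn, log2) of each probe on the non-CL side (horizontal axis) and on the CL side (vertical axis), with the 233 probes at an unadjusted p under 0.05 in red and 12 named genes circled. Values spread further along the CL-side axis, and the farthest circled genes above the dashed line of equal change are LAP, KRT15, PIGR and LTF.

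The largest contrasts above 0 were those of LAP, the lingual antimicrobial peptide, an epithelial defensin of cattle, and KRT15, a keratin of basal and stratified epithelium. LAP had log2 signals of 1.11, −0.99 and −3.25 in CL-side summer, −6.67, −5.89 and −7.23 in CL-side autumn, −4.85, −3.64 and −4.17 in non-CL summer and −3.92, −4.91 and −7.25 in non-CL autumn. All 3 CL-side summer arrays lay above the 9 others, while the non-CL seasons overlapped. The season change was 5.56 ± 1.05 on the CL side and 1.14 ± 1.05 on the other, and the contrast was 4.42 ± 1.48 (95% interval 1.13 to 7.70). Its horn differences were 5.97, 2.64 and 0.92 in summer and −2.76, −0.98 and 0.01 in autumn. Leaving out the dim array gave 4.39, and leaving out any 1 array gave 3.34 to 5.52.

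TAP, tracheal antimicrobial peptide, is a close relative of LAP. The stretches of both probes that match best without a gap are shown because shared letters bear on whether the signals are independent; capitals mark the 21 of 30 bases that are identical. The stretches are bases 30 to 59 of the LAP probe and 13 to 42 of the TAP probe, both probes being 60 bases long, as the files give them.
LAP: GacTggATGCggAGTCAGAAacTGtGCCCT
TAP: GgaTcaATGCccAGTCAGAAcgTGcGCCCT
Cross-hybridisation between the probes was not tested, and the genes are best read together. TAP had signals of 0.96, −0.55 and −4.08 in CL-side summer, of which the first 2 were far above the other 10 arrays. Its contrast was 3.25 ± 1.86, with an interval of −0.87 to 7.37 that spans 0, and 2.16 without CL-side summer number 1. TAP was well above background on 2 of the 3 CL-side autumn arrays, and 2 of its signals were at the floor.

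PIGR, which ferries polymeric IgA and IgM through epithelial cells, had signals of 1.87, 3.76 and −0.25 in CL-side summer and −2.31, −2.87 and −2.58 in CL-side autumn. On the non-CL side they were −2.83, −0.57 and −1.44 in summer and −2.29, −3.64 and −1.99 in autumn. The CL-side seasons did not overlap and the non-CL seasons did. The contrast was 3.35 ± 1.26 (interval 0.55 to 6.15), and 2.37 without the dim array, which held the highest value.

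KRT15 had signals of 1.47, 3.57 and −1.08 in CL-side summer and −3.51, −4.57 and −3.27 in CL-side autumn, again without overlap. Non-CL signals were −4.71, −0.91 and −1.51 in summer and −3.11, −2.82 and −3.63 in autumn, and these overlapped. The contrast was 4.29 ± 1.62 (interval 0.70 to 7.89). The summer horn differences were 6.18 for number 1, 4.48 for number 2 and 0.44 for number 3. Number 3 was thus near its autumn value of 0.36, and the contrast rested on numbers 1 and 2.

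**Figure D2:**
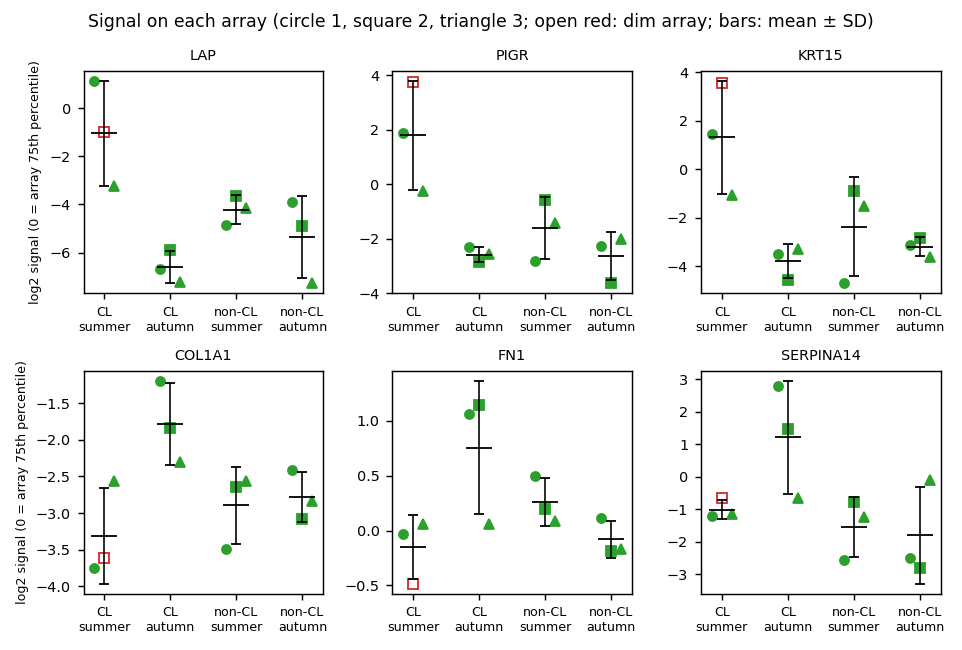
Log2 signal relative to the 75th percentile of each array for 6 genes, by group, with a symbol per replicate number, the dim array as an open red square, and bars for the mean ± SD of 3 arrays. LAP, PIGR and KRT15 are highest in CL-side summer, whereas COL1A1, FN1 and SERPINA14 have their highest values in CL-side autumn.

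Most other genes of smallest p above 0 were dim. TBC1D22A, a Rab GTPase-activating protein, led them with a contrast of 0.88 ± 0.23 (unadjusted p = 0.0029, limma), and 0.44 with the authors' deposited values. Its signals were −4.02, −4.16 and −4.44 in CL-side summer and −4.89, −4.79 and −4.96 in CL-side autumn, against −4.58, −4.26 and −4.61 and then −4.14, −4.43 and −4.27 on the non-CL side. The CL-side seasons were apart and the non-CL seasons overlapped. C8B, a chain of the complement membrane attack complex, had a contrast of 1.99 ± 0.60, with signals of −6.52, −4.46 and −5.17 in CL-side summer and −7.25, −7.16 and −7.28 in CL-side autumn, the last at the floor. C8B was well above background on 2 of the 3 CL-side autumn arrays, so its contrast is a fitted value. The C8B contrast was 0.24 with the authors' deposited values and 0.87 with normexp background correction.

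Further genes above 0 ranged from 0.76 to 1.29, namely FGF4, a fibroblast growth factor (1.29), ITGA2, an integrin subunit that binds collagen (1.18), HID1 (1.17), LIN7B, a scaffold protein of cell junctions (1.14), ZPBP2 (1.13), KLC2, a kinesin light chain (0.98), GLB1, a galactosidase of lysosomes (0.76), and RNF182, an E3 ligase for ubiquitin (0.76). The highest group mean among these genes was −4.56, that of GLB1 in CL-side summer. In CL-side autumn, KLC2 was well above background on 1 of the 3 arrays, and LIN7B and HID1 on 2. ITGA2 was well above background on 2 of the 3 non-CL summer arrays. The contrasts of KLC2, LIN7B, HID1 and ITGA2 are therefore fitted values and no measured folds. With the authors' deposited values in place of the scanner signals, LIN7B, RNF182 and KLC2 turned to −0.0074, −0.10 and −0.027. The 5 others kept their sign but not their size, with 0.048 for FGF4, 0.033 for ITGA2, 0.040 for HID1, 0.27 for ZPBP2 and 0.22 for GLB1.

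Below 0, the genes of smallest p included several of the extracellular matrix. FN1, fibronectin, had signals of −0.03, −0.48 and 0.06 in CL-side summer and 1.07, 1.15 and 0.06 in CL-side autumn. On the non-CL side it had 0.50, 0.19 and 0.09 in summer and 0.11, −0.19 and −0.17 in autumn. The contrast was −1.25 ± 0.40 (interval −2.13 to −0.37), and a second FN1 probe gave −0.74 ± 0.58. CL-side autumn numbers 1 and 2 were the high arrays, and number 3 matched the summer level.

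SRPX2, a secreted protein of the cell surface, had signals of −4.25, −4.71 and −3.77 in CL-side summer and −2.73, −2.46 and −3.36 in CL-side autumn. Its 6 non-CL arrays lay between −3.77 and −3.44, and the contrast was −1.28 ± 0.37. CTHRC1, a collagen triple helix repeat protein, had signals of −1.77, −1.72 and −3.90 in CL-side autumn, while the 9 other arrays lay between −4.64 and −3.41. As with FN1, numbers 1 and 2 stood high and number 3 did not. The contrast was −1.83 ± 0.70, and −2.55 without CL-side autumn number 3.

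Other genes below 0 act in adhesion, elastic fibres and protein folding. ITGB1, the integrin beta subunit that pairs with many alpha subunits in matrix receptors, had −0.71 ± 0.26. EFEMP2, a fibulin of elastic fibres, had −0.85 ± 0.32, and RCN1, a calcium-binding protein of the endoplasmic reticulum, −0.81 ± 0.31. SELP, the P-selectin of activated endothelium, had −1.16 ± 0.42, and its horn differences were −0.64, −1.35 and −0.07 in summer and 0.75, 0.79 and −0.13 in autumn. The value for the third number was thus close to 0 in both seasons.

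The remaining values below 0 were those of GYG1, the primer of glycogen synthesis (−1.08 ± 0.32), CBX1, a heterochromatin protein (−1.29 ± 0.45), MTHFD2, a mitochondrial folate enzyme (−1.32 ± 0.50), PGM2L1 (−0.52 ± 0.20) and RBBP7, a histone-binding subunit of chromatin complexes (−1.57 ± 0.35). RBBP7 was measured on 7 arrays, as the other spots carried an outlier flag. Each summer group kept only number 2, which on the CL side is the dim array, so its contrast sets 1 array against 1 in summer and could not be fitted without the dim array. MTHFD2 was well above background on 1 of the 3 CL-side summer arrays and CBX1 on 2, so both contrasts are fitted values. With the authors' deposited values RBBP7 had −0.69, MTHFD2 −0.50, CBX1 −0.47 and GYG1 −0.53. Of the 24 genes of smallest p, 21 had summer horn differences that did not overlap those of autumn, and 1 lacked a pair. Over all probes with 6 pairs this share was 9.65%, made up of 6.51% with summer above autumn and 3.14% with summer below, and the 24 were picked by the same contrast.

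**Figure D3:**
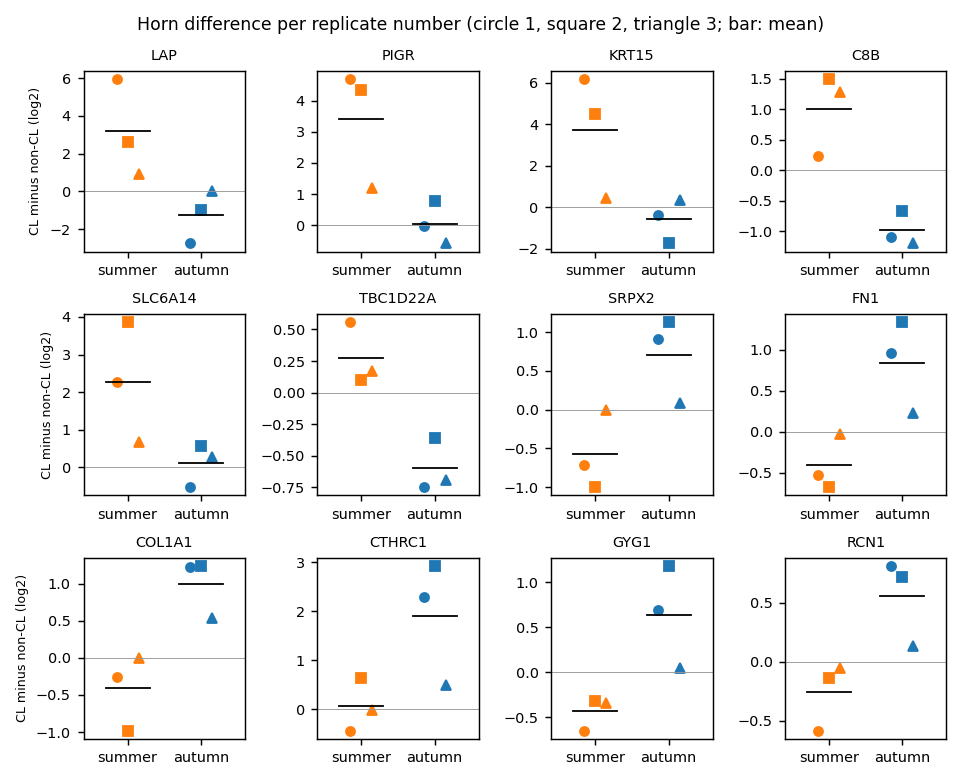
CL minus non-CL difference (log2) of same-numbered arrays in summer and in autumn for 12 genes, with a symbol per number and a bar for the mean of 3. In LAP, PIGR, KRT15, C8B, SLC6A14 and TBC1D22A every summer point lies above every autumn point, and in SRPX2, FN1, COL1A1, GYG1 and RCN1 every one lies below; CTHRC1 overlaps at numbers 2 and 3.

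Gene lists were described by the counts and the median of their members, beside the 5799 genes with a symbol, of which 55.5% lay above 0 with a median contrast of 0.04. Among all these genes, 72 had an unadjusted p under 0.05 above 0 and 44 below. No list member passed the adjusted threshold. With some 1 array left out, 29 of the 31 list medians and 34 of 80 named genes moved by over 1.5 times or changed sign; without the dim array 23 and 25 did. Defensins and mucosal immunoglobulin transport had the highest median, 1.32, with 11 of 12 measured members above 0 and 2 of them, LAP and PIGR, at an unadjusted p under 0.05. The median horn difference of this list was 0.89, 3.25 and 0.82 in summer and 0.01, 0.33 and 0.07 in autumn. The seasons did not overlap, and number 2 with the dim array was highest. Without the dim array the list median was 0.60.

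Within that list LTF, lactoferrin, an iron-binding antimicrobial protein of epithelial secretions and neutrophils, had a contrast of 3.55 ± 2.05, and a second probe gave 3.47. Its signals were 3.34, 7.73 and 3.23 in CL-side summer, 0.60, 2.48 and 1.17 in CL-side autumn, −2.39, 2.73 and 1.63 in non-CL summer and −0.55, 1.66 and 1.48 in non-CL autumn. The CL-side seasons were apart, with the dim array highest, and without it the contrast was 2.07. BPIFB1 and PGLYRP1, secreted proteins of innate defence, both had 1.32. CATHL5, a cathelicidin, had −0.09 and EBD, the enteric beta-defensin, 0.04.

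Neutrophil and granulocyte markers had a median of 0.84, with 11 of 13 above 0 and 1 at an unadjusted p under 0.05. That member was S100A8, a calprotectin subunit, with signals of −0.39, 0.42 and −1.13 in CL-side summer and −2.88 to −2.02 in CL-side autumn. Its 6 non-CL arrays lay between −3.87 and −2.17, below all 3 CL-side summer arrays. The contrast was 1.54 ± 0.66. CXCR1, a receptor for interleukin 8, had 1.59, whereas TPSB2, a mast cell tryptase, had −0.54. The list median was 0.44 without the dim array and 0.27 with the authors' deposited values.

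T and NK cell markers had a median of 0.59, with 17 of 21 above 0. CD3G, a chain of the T cell receptor complex, had 1.46 ± 0.58, and 0.81 with the authors' deposited values. GNLY, the granulysin of cytotoxic lymphocytes, had 1.42 ± 0.58, with 1.53 from a second probe. GNLY signals were −2.39, −1.20 and −2.91 in CL-side summer and −3.99, −3.31 and −3.49 in CL-side autumn. These did not overlap, and the contrast was 0.94 without the dim array. PRF1, perforin, had −0.67 and GZMB, granzyme B, −0.18, so not all cytotoxic genes had the sign of GNLY. With the authors' deposited values the median of the list was 0.06.

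B and plasma cell markers had 8 of 8 above 0 and a median of 0.45, led by MS4A1, the B cell antigen CD20 (1.07 ± 0.57), and JCHAIN, the joining chain of secreted immunoglobulin (0.98). The list median was 0.16 without the dim array and also 0.16 with the authors' deposited values. MS4A1 was at the floor on 6 arrays, every CL-side autumn array among them, so its contrast is a fitted value and no measured fold. It had 0.51 without the dim array and −0.031 with the authors' deposited values. Macrophage and dendritic cell markers had 6 of 17 above 0 and a median of −0.17. C1QC, a subunit of complement C1q made by macrophages, had −0.97 ± 0.58, and −0.53 without the dim array or without CL-side autumn number 2. MSR1, a scavenger receptor, had −1.23. No marker of this list had an unadjusted p under 0.05.

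Chemokines, interleukins and their receptors had a median of 0.11, with 24 of 38 above 0, and members far from 0 in both directions. CXCL2, which attracts neutrophils, had 2.58 ± 1.48 and 1.15 without the dim array, on which its signal of 0.66 compared with −3.76 and −3.52 on the other CL-side summer arrays. CCL19, which attracts lymphocytes, had −1.88. IFNG, interferon gamma, was well above background on all 3 CL-side summer arrays, on no CL-side autumn array and on 1 array of each non-CL group. No contrast from the scanner signals is therefore given for it. SOCS3, a feedback inhibitor of cytokine signalling, had 0.91 ± 0.60, but 0.45 without the dim array and 0.038 with the authors' deposited values.

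Complement components were evenly split, with 11 of 21 above 0 and a median of 0.04. CD55, which dissociates complement convertases on the cell surface, had 0.69 ± 0.32 on 12 arrays and −0.079 on the first slide alone. The 2 autumn arrays of that slide had signals of 0.01 on the CL side and −0.29 on the non-CL side.

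Epithelium markers had 22 of 25 above 0 and a median of 0.70, with no member at an unadjusted p under 0.05. The median was 0.44 without CL-side autumn number 2, 0.23 on the first slide alone and 0.30 with arrays weighted by quality (limma). KRT19 had 1.42, KRT8 1.01, and AP1M2, an adaptor subunit of epithelial sorting, 0.68 ± 0.33. CDH1, E-cadherin, was one of 3 below 0 with −0.58. The median horn difference was 0.47, 0.71 and −0.29 in summer and 0.04, −0.78 and −0.51 in autumn, and the seasons overlapped at the third summer and first autumn number. The mean log2 level of the 25 markers was −0.58 to 0.47 in CL-side summer, −0.97 to −0.60 in CL-side autumn, −0.77 to −0.28 in non-CL summer and −0.70 to −0.21 in non-CL autumn. Of these markers 23 were above background on all 12 arrays. The epithelial median had the sign of the LAP, PIGR and KRT15 contrasts. In CL-side summer the epithelial mean was −0.40 on number 1, 0.47 on number 2 and −0.58 on number 3. PIGR and KRT15 ranked these arrays in the same order, highest on number 2 and lowest on number 3. LAP was highest on number 1 and lowest on number 3. The part of epithelial levels in those contrasts was not tested.

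Ciliated cell genes, which build the axoneme of motile cilia, had 15 of 17 above 0 and a median of 0.54. TEKT1, a tektin of ciliary microtubules, had 0.99 ± 0.87 and DYNLRB2, a dynein light chain, 0.84 ± 0.63. Without non-CL autumn number 3 they had 0.30 and 0.52, and TEKT1 had 0.14 with the authors' deposited values. Both horns had higher values in summer for this list, with median season changes of 1.19 on the CL side and 0.67 on the other. Leaving out 1 array moved the list median between −0.05 and 1.12. Squamous and basal epithelium genes had 7 of 9 above 0 and a median of 0.62, with KRT15 at the top, KRT5 at 2.24 and SFN at −0.31. That median was 0.25 without CL-side summer number 1 and 0.27 without non-CL autumn number 3.

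Among water channels and solute carriers, 27 of 36 lay above 0, with a median of 0.21. SLC6A14, an amino acid transporter of the apical membrane, had signals of −2.04, −0.24 and −3.59 in CL-side summer, above the 9 other arrays at −4.66 to −3.69. The contrast was 2.16 ± 0.91, and 1.30 without the dim array. AQP3, a water and glycerol channel of epithelium, and AQP5, an epithelial water channel, had 2.25 ± 1.16 and 2.18 ± 1.28. Without the dim array they had 0.98 and 0.82, and the list median was 0.01.

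The lowest median was that of stromal fibroblast markers, −0.89, with 18 of 19 below 0 and 4 at an unadjusted p under 0.05. COL1A1, which encodes an alpha chain of type I collagen, had signals of −3.75, −3.62 and −2.56 in CL-side summer and −1.20, −1.84 and −2.31 in CL-side autumn. On the non-CL side it had −3.50, −2.64 and −2.56 and then −2.42, −3.08 and −2.84. The CL-side seasons were apart and the non-CL seasons overlapped, and the contrast was −1.41 ± 0.56 (interval −2.64 to −0.18). The 3 others were OGN, osteoglycin, a small leucine-rich proteoglycan (−1.55 ± 0.62, and −0.89 with the authors' deposited values), POSTN, periostin, an adhesion protein of the matrix (−1.65 ± 0.66), and BCHE, butyrylcholinesterase (−1.12).

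The median horn difference of the stromal list was −0.21, −0.81 and 0.09 in summer and 0.50, 0.79 and 0.34 in autumn. The seasons did not overlap, and the dim array belonged to the lowest pair. Without it the list median was −0.59. The mean log2 level of the 19 markers was −1.09 to −0.13 in CL-side summer, −0.08 to 0.57 in CL-side autumn, −0.63 to −0.21 in non-CL summer and −0.47 to −0.13 in non-CL autumn. Of these markers 17 were above background on all arrays, and OGN was so on 2 of the 3 CL-side summer arrays.

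Matrix glycoproteins and crosslinking genes had 29 of 34 below 0 and a median of −0.55. The 4 members below 0 at an unadjusted p under 0.05 were FN1, SRPX2, EFEMP2 and SPARC, a collagen-binding protein (−1.08), and LOXL1, a collagen and elastin crosslinking enzyme, had −1.26. PRELP, a leucine-rich proteoglycan, was the highest member at 1.30, also at an unadjusted p under 0.05. The list median was −0.57 without the dim array and −0.52 with the authors' deposited values. The median of the stromal markers was below 0 too, and the part of stromal marker levels in these contrasts was not tested.

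Genes of cell division and replication had 19 of 22 below 0 and a median of −0.60, which was −0.33 without the dim array and −1.04 without CL-side autumn number 3. STMN1, a regulator of microtubules, had −0.89 ± 0.38, CCNA2, cyclin A2, −0.80 ± 0.51, and CENPF, a kinetochore protein, −1.74. CCNA2 signals were −4.45, −3.19 and −4.80 in CL-side autumn and −5.56 to −4.63 on the 9 other arrays, so CL-side autumn number 2 was the high array. Without that array the CCNA2 contrast was −0.32. HMGB2, a chromatin protein, was at the floor on 6 arrays, every CL-side autumn array among them. Its contrast of 0.76 ± 0.28 is therefore a fitted value and no measured fold, and it was −0.059 with the authors' deposited values. MKI67 was not measured here.

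Uterine secretory proteins had 20 of 24 below 0 and a median of −0.44, which was −0.14 without the dim array. SERPINA14, uterine serpin or uterine milk protein, had signals of 2.79, 1.48 and −0.64 in CL-side autumn and −1.20, −0.67 and −1.16 in CL-side summer. Non-CL signals were −2.56, −0.79 and −1.25 in summer and −2.50, −2.80 and −0.10 in autumn. Only CL-side autumn numbers 1 and 2 exceeded 0. The contrast was −2.49 ± 1.26, with an interval of −5.28 to 0.30. SPP1, osteopontin, had −1.82, TIMP1, an inhibitor of metalloproteinases, −0.66 ± 0.33, and MUC1, a membrane mucin that is also an epithelium marker, was the highest member at 1.1.

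**Figure D4:**
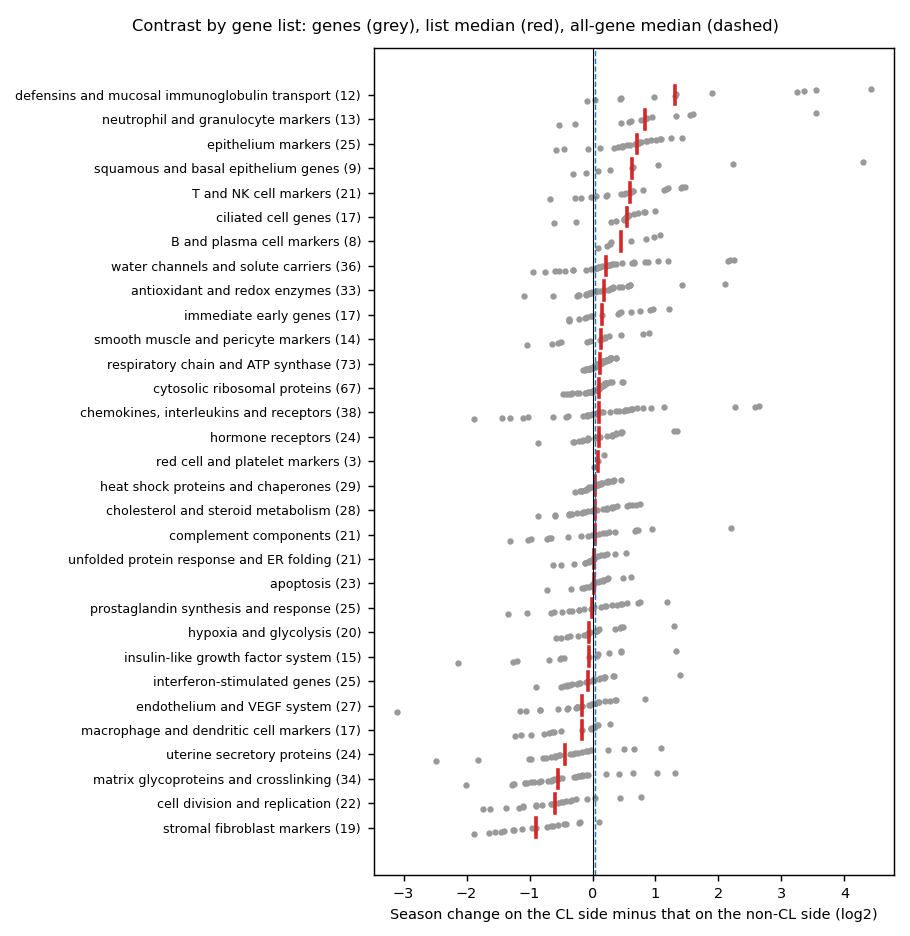
Contrast of each measured gene (grey points) in 31 gene lists, with the list median in red, the number of measured genes in parentheses and the median of all genes as a dashed line; the horizontal axis is in log2 units. The list medians run from 1.32 for defensins and mucosal immunoglobulin transport to −0.89 for stromal fibroblast markers.

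The insulin-like growth factor system had 7 of 15 above 0 and a median of −0.06. Single arrays moved this median, to −0.42 without the dim array, −0.49 without non-CL summer number 1 and 0.14 without non-CL summer number 2. IGFBP6, a binding protein that prefers IGF2, had signals of 0.51, −0.02 and 1.21 in CL-side summer and 1.95, 2.53 and 1.70 in CL-side autumn, with a contrast of −1.21 ± 0.47. IGFBP4 had −0.50 ± 0.22 and IGF1 −1.26 ± 0.83, with −0.57 from a second probe and −0.53 without the dim array. IGF1 was well above background on 2 of the 3 CL-side summer arrays and at the floor on the dim array. IGFBP1, a binding protein of the progesterone-exposed endometrium, was the highest member at 1.33 ± 0.87. Its horn differences were 1.61, −0.30 and −1.07 in summer and −1.28, −1.21 and −1.26 in autumn, and every summer value exceeded every autumn value. Without CL-side autumn number 2 its contrast was 0.83.

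Hormone receptors had 14 of 24 above 0 and a median of 0.10. PGR, the progesterone receptor, had a contrast of −0.08 ± 0.26, with an interval of −0.66 to 0.51, and 0.13 without the dim array. ESR1 had 0.37 ± 0.45 near the floor and −0.10 with the authors' deposited values. OXTR, the oxytocin receptor, through which oxytocin drives prostaglandin release, had 1.30 ± 1.57. Its value was 0.43 without the dim array, 0.40 without CL-side autumn number 3 and 2.25 without non-CL autumn number 3. GHR, the growth hormone receptor, had −0.86 ± 0.60 and −0.36 without the dim array.

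OXTR signals ranged widely within each group, from −3.74 to −0.60 in CL-side summer, −4.65 to −1.31 in CL-side autumn, −5.62 to −3.24 in non-CL summer and −5.69 to −2.78 in non-CL autumn. All 6 horn differences were above 0, at 3.0, 2.64 and 1.02 in summer and 0.26, 1.47 and 1.04 in autumn, and the seasons overlapped. Genes of prostaglandin synthesis and response had 12 of 25 above 0 and a median of −0.01. PTGS2, the inducible cyclooxygenase, had 0.22 ± 0.92 and AKR1B1, a prostaglandin F synthase in cattle, −0.38 ± 0.96, with a missing CL-side autumn spot and 0.56 without the dim array. CBR3, a carbonyl reductase, had −0.60 ± 0.28, and −0.36 without CL-side autumn number 2. The intervals of PTGS2, −1.82 to 2.26, and AKR1B1, −2.50 to 1.75, reach past 1 in both directions.

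Interferon-stimulated genes, which an early embryo of cattle induces through interferon tau, had 11 of 25 above 0 and a median of −0.07. ISG15, a ubiquitin-like protein, had −0.41 ± 0.45 and MX1, an antiviral GTPase, −0.07 ± 0.37. The season change of ISG15 was 0.70 ± 0.32 on the CL side and 1.11 ± 0.32 on the non-CL side, and that of MX1 was 0.59 ± 0.26 and 0.66 ± 0.26. MX2 alone in this list had an unadjusted p under 0.05, with 1.40 ± 0.63, and 0.22 with the authors' deposited values. On the first slide alone ISG15 had 0.030 and MX1 0.19.

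Heat shock proteins and chaperones had 17 of 29 above 0, and all members lay between −0.28 and 0.45, around a median of 0.04. HSPA1A, the inducible HSP70, had −0.05 ± 0.46, HSPA8, the constitutive one, −0.07 ± 0.21, HSP90AA1 0.07 ± 0.21 and the mitochondrial HSPA9 0.35 ± 0.22. HSP90AA1 signals were 4.64, 4.37 and 4.25 in CL-side summer, 4.37, 4.28 and 4.49 in CL-side autumn, 4.64, 4.48 and 4.38 in non-CL summer and 4.56, 4.36 and 4.67 in non-CL autumn. All 4 groups overlapped. The interval of its contrast was −0.40 to 0.55, and that of HSPA1A was wider, −1.07 to 0.97.

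Immediate early genes, which are transcribed within minutes of a stimulus, had high season changes in both horns, with medians of 1.11 and 0.97, and a median contrast of 0.14, which was −0.04 without the dim array and −0.40 to 0.76 with any 1 array left out. FOS, a subunit of AP-1, had the widest error of the named genes, −0.38 ± 2.22. Antioxidant and redox enzymes had a median of 0.18, with 21 of 33 above 0, and of 0.02 without the dim array. GSTA2, a glutathione S-transferase, had 2.11 ± 0.90, and SOD1, the cytosolic superoxide dismutase, 0.18 ± 0.23.

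The lists of abundant housekeeping transcripts had small values with narrow ranges. Respiratory chain and ATP synthase genes had 60 of 73 above 0 and a median of 0.12, led by COX7B with 0.37 ± 0.20, and the range of all members was −0.16 to 0.38. Cytosolic ribosomal proteins had 52 of 67 above 0 and a median of 0.11, which was −0.12 without the dim array. RPS12 had the highest value, 0.49 ± 0.36, with 0.13 from a second probe and 0.29 without the dim array. Under quantile normalization the ribosomal median was −0.0018 and the respiratory chain median 0.064. The respiratory chain median was 0.058 without the dim array and kept its sign under every alternative. A part of array scaling in these counts of signs was not tested.

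The medians of the other lists lay near the all-gene median. Endothelium and the VEGF system had −0.16 with 9 of 27 above 0, and red cell and platelet markers 0.08 with 3 of 3. Single endothelium members ranged from −3.10 to 0.84, and SELP was the 1 at an unadjusted p under 0.05. Of the 27, 25 were above background on all 12 arrays. Smooth muscle and pericyte markers had 0.13 with 8 of 14, but −0.34 without the dim array, −0.82 on the first slide alone and −0.44 to 0.59 with any 1 array left out. KCNJ8, a potassium channel of pericytes, had −0.64 ± 0.39 and ALAS2, the heme synthesis enzyme of red cell precursors, 0.18 ± 0.26. Apoptosis genes had 0.02, with BCL2 at −0.72 ± 0.38, and the unfolded protein response 0.02, with SELENOS at 0.35 ± 0.24. Cholesterol and steroid metabolism had 0.04, with DHCR7, the last enzyme of cholesterol synthesis, at 0.76 ± 0.41, and hypoxia and glycolysis −0.05, with PFKM, a phosphofructokinase, at −0.50 ± 0.32. Without the dim array KCNJ8 had −0.35, BCL2 −0.44 and PFKM −0.28, and ALAS2 was at 0.00023.

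With the authors' deposited values, probes above 0 lost size more often than probes below 0. These sets differed in level as well, so direction and level cannot be told apart here. Of the 156 probes above 0 at an unadjusted p under 0.05, whose median level was −5.80, 127 kept their sign with the authors' deposited values and 106 had under 0.5 of the size. Of the 77 below 0, with a median level of −3.18, 77 kept their sign and 20 had under 0.5 of the size. Over all probes the median level was −1.62. With those values 97 probes had an unadjusted p under 0.05, 31 above 0 and 66 below, and 0 passed the adjusted threshold. The split between directions was 54 above and 66 below with normexp background correction, 139 and 105 with quantile normalization, 121 and 93 with the percentile over probes above background on all arrays, and 105 and 117 on the first slide alone.

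**Figure D5:**
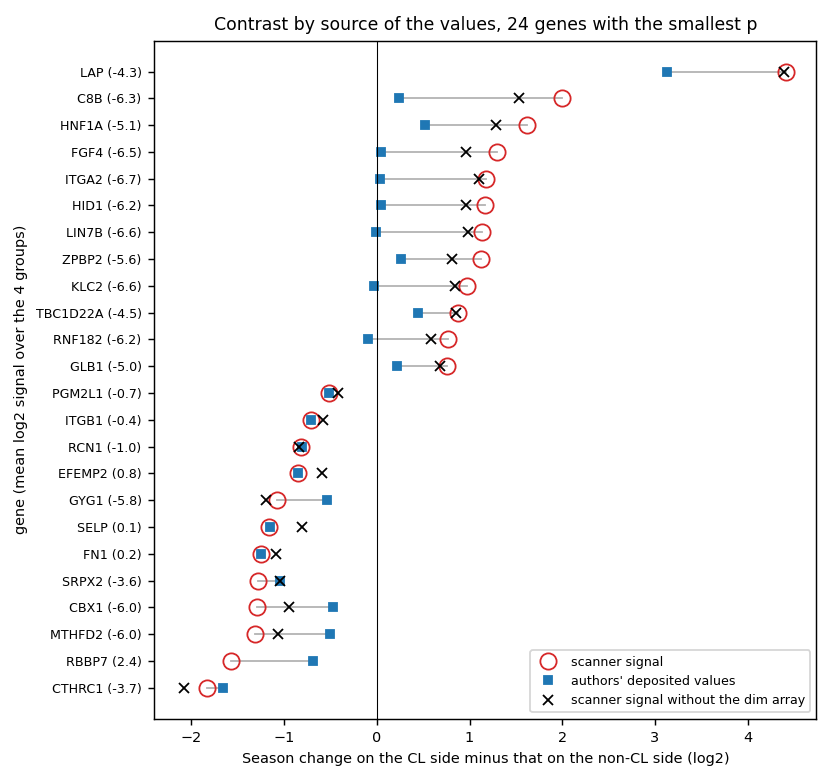
Contrast (log2) of the 24 genes of smallest p from the scanner signals (red circles), from the authors' deposited values (blue squares) and from the scanner signals without the dim array (crosses), with the mean log2 signal over the 4 groups in parentheses. LIN7B, KLC2 and RNF182, all dimmer than −6, fall below 0 with the authors' values, and FGF4, ITGA2 and HID1 come to lie near 0. FN1, SELP and ITGB1 hardly move, whereas RBBP7, MTHFD2, CBX1 and GYG1 keep under 0.5 of their size.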

How the data were processed

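Total RNA (400 ng) of 12 endometrium biopsies was labelled with Cy3 and hybridised to 1-colour Agilent arrays. Per the file headers, the deposited spot intensity was background-subtracted and detrended within the array by Feature Extraction 9.5.1.1 (version 9.5 in the submitters' processing notes), not scaled between arrays. The authors deposited log2 values of the same arrays too, with centring unstated: array medians were −2.79 to −2.61, 75th percentiles close to 0, and correlations with the scanner values 0.976 to 0.994. They served as an alternative.

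Intensities were divided by the array's 75th percentile, set to a floor of −7.28 on the log2 scale (2.06% of kept values) and log2-transformed, and 466 outlier-flagged values were left out. A probe was kept where every array of some group had it well above background (12404 probes; 2804 were removed and 12375 could be fitted). Symbols, from the files or the ARS-UCD2.0 gene table used for names only, were matched for 7056 probes, and 8098 stayed unnamed. For 221 symbols with several probes the brightest stood for the gene. No coordinates are printed, since the array's genome build was not given in the sources used here.

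Groups and numbers came from the titles. The contrast was fitted with limma 3.58.1 in R 4.3.3 (4 group means, 8 residual degrees of freedom, eBayes, Benjamini-Hochberg over all probes), and the code was tested on simulated data. Deviations from the group means of same-numbered horns correlated at 0.137 to 0.500 in all 6 pairs, and other pairs of a season at −0.416 to 0.032, so numbers were taken to pair the horns. Numbers also correlated between seasons in each horn (0.109 to 0.345). Whether they mark cows is not stated. Standard errors, p-values and 95% intervals of genes come from the main fit, which holds no block for the numbers. The number of arrays limits precision.

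Named were the 12 genes of smallest unadjusted p in each direction among those above background on at least 10 arrays, up to 3 members of each list at an unadjusted p under 0.05 or else the lowest, and a list of fixed genes. Further members were named for their role or place in a list after their values were seen. The comparison, the genes and the 31 lists were chosen with earlier results of these data known. Alternatives numbered 27 planned and 7 added after seeing the data: 6 that leave out both horns of a number, and a block over both horns and seasons. One gene that the naming rule picked is not reported here.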

Additional observations from a re-analysis of the deposited data

How the results depend on the processing

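No probe passed the adjusted threshold under 33 of the 34 alternatives. With 1 array, or both horns of 1 number, left out, 0 to 1 probes passed and 123 to 740 had an unadjusted p under 0.05. The highest counts came without CL-side summer number 3 (740) or number 1 (421), or without both horns of summer number 3 (413), and the lowest without non-CL summer number 3 or both horns of autumn number 2 (123 each); without CL-side autumn number 2 it was 154. With the replicate numbers as a block the count was 548 within season, 366 across seasons and 549 over both horns and seasons, the last chosen after seeing the data. It was 120 with normexp, 97 with the authors' deposited values and 117 of 5799 with the mean over a gene's probes. The other alternatives stayed within 1.5 times of 233. Of 80 named genes, 61 kept their sign under every alternative run, and 13 of 31 lists kept the sign of their median. With the authors' values, LIN7B was −0.0074, RNF182 −0.10, KLC2 −0.027, HMGB2 −0.059, IFNG −0.035, MS4A1 −0.031 and ESR1 −0.10. On the first slide alone CD55 was −0.079, ISG15 0.030 and MX1 0.19. With array weights ALAS2 was −0.14, AKR1B1 0.54, PGR 0.16 and PTGS2 −0.50. With arrays or numbers left out, the ranges that crossed 0 were −0.69 to 0.033 for ISG15, −0.0047 to 0.33 for SOD1, −0.86 to 0.56 for AKR1B1, −0.20 to 0.039 for HSPA8, −0.038 to 0.16 for HSP90AA1, −0.24 to 0.13 for PGR, −0.62 to 1.04 for PTGS2, −0.27 to 0.16 for MX1, −2.69 to 1.23 for FOS and −0.44 to 0.17 for HSPA1A. The causes were not tested. Some genes near the floor differed widely between settings. C8B had 1.99 from the scanner signals, 0.87 with normexp and 0.24 with the authors' deposited values. This limits what the values of such genes show.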

Other observations

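Among genes well above background on all 12 arrays, some with the largest contrasts are not described above, and they were chosen after their values were seen. GP2, a mucosal glycoprotein that binds bacteria, had 4.01 ± 2.21, with horn differences of 5.89, 4.90 and 2.21 in summer and 0.28, 0.59 and 0.11 in autumn. NTS, the precursor of neurotensin, had 4.0 ± 1.88, with 4.15, 5.97 and 2.34 in summer and 0.36, 0.23 and −0.13 in autumn. In both genes every summer difference lay above every autumn difference. ELF5, an epithelial transcription factor, had 3.42 ± 1.89, GCNT3, a mucin glycosyltransferase, 2.49 ± 1.55, and CXCL5, a neutrophil chemokine, 2.27 ± 1.27. Without the dim array these 5 values were 2.43, 2.23, 1.59, 0.95 and 1.14.

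At the other end, P4HA3, a collagen prolyl hydroxylase subunit, had −2.50 ± 1.75, PENK, proenkephalin, −2.44 ± 2.05, NRG2, a neuregulin, −2.06 ± 1.53, and CYP1B1, a cytochrome P450, −1.94 ± 1.64. The horn difference of summer number 2, which holds the dim array, was −6.21, −7.47, −5.38 and −5.49 for these genes. Their other 5 horn differences lay between −0.60 and 1.05. Without the dim array the contrasts were −0.55, −0.15, −0.37 and −0.10. TNC, tenascin C, a member of the matrix glycoprotein list, had horn differences of −0.63, 4.11 and 2.05 in autumn and −0.26, −0.66 and 0.42 in summer. Autumn numbers 2 and 3 lay above all summer values and number 1 within them, and the contrast of −2.01 ± 1.23 was −1.44 without the dim array.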
